A study of Mus musculus with 17 samples.

Results

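Transcripts of 10 receptor genes were followed in the mouse choroid plexus during and after treatment with dextran sodium sulfate (DSS), a sulfated sugar polymer that damages the colon epithelium and is used as a model of colitis. The genes were chosen by name, with earlier results of these data known. They encode receptors for bacterial products (Tlr2, Tlr4, Cd14), for tumour necrosis factor (Tnfrsf1a, Tnfrsf1b), for interleukin 1 (Il1r1), for interleukin 6 (Il6ra, Il6st) and for interferon gamma (Ifngr1, Ifngr2). All 10 symbols matched a row of the deposited count table of 55487 genes, and all 10 were among the 16851 genes that passed the filter on low counts. The 17 libraries were made from total RNA of whole dissected tissue (lateral ventricles, C57BL/6 mice). They comprise 5 controls (CTRL), 4 libraries after 1 day of DSS (T1), 4 after 3 days of DSS (T3) and 4 after 3 days of DSS with 2 further days on water (T5). The labels give neither age nor sex, do not say what CTRL mice drank, and do not tie each library to its own animal. The spread behind each p-value is thus that of these libraries, and it may be technical.

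The choroid plexus is a folded sheet of secretory epithelium over a stroma of fenestrated capillaries, fibroblasts and macrophages. It faces blood on one side and cerebrospinal fluid on the other, and it can respond to bacterial products and cytokines in the circulation. TLR4, with its partner MD-2 (encoded by Ly96), recognises lipopolysaccharide that LBP and CD14 hand over, and TLR2 recognises bacterial lipoproteins. TLRs and the interleukin 1 receptor signal through MyD88 to NF-kB, TNF receptors reach NF-kB through TRADD or TRAF proteins, and the receptors for interleukin 6 and interferon gamma signal through JAK kinases.

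In GRCm38 coordinates the bacterial receptors lie at chr3:83836272-83841767 (Tlr2, minus strand), chr4:66827584-66930284 (Tlr4, plus) and chr18:36725067-36726798 (Cd14, minus). The TNF receptor genes lie at chr6:125349362-125362484 (Tnfrsf1a, plus) and chr4:145213463-145246870 (Tnfrsf1b, minus), and Il1r1 at chr1:40225080-40317257 (plus). The interleukin 6 receptor genes lie at chr3:89864059-89913196 (Il6ra, minus) and chr13:112464070-112510086 (Il6st, plus), and those for interferon gamma at chr10:19591949-19610229 (Ifngr1, plus) and chr16:91547072-91565623 (Ifngr2, plus). All 10 are annotated as protein coding.

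Library totals ran from 8875921 to 26839417 counts, and a receptor gene had between 23 and 3403 counts in a library. Ttr, the transthyretin gene that marks the epithelium, had a median of 108750 CPM (counts scaled to library size after TMM normalization), and all 8 epithelial markers were detected in every library. The number in the sample title is 28 or above for 4 libraries: T1 replicates 2, 3 and 4 and T3 replicate 4. These 4 libraries stood apart for several receptors, and the values that moved most with them are also given with those libraries set aside. With their numbers as a term the T1 values depend largely on T1 replicate 1, the T1 library with a lower number, and without them T1 has 1 library, whose spread is then taken from the other groups. In bulk tissue, fewer cells of a type and less RNA per cell cannot be told apart.

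On a scale per length of transcript (FPKM, CPM per kilobase of annotated exons), the receptors fell into an upper and a lower tier. Tnfrsf1a, the broadly expressed death domain receptor for TNF, was the most abundant of the 10 in all 17 libraries, with a median of 24.8 FPKM (19.1 to 29.9), at the 88.2nd percentile of all tested genes. Ifngr1, the ligand-binding chain of the interferon gamma receptor, came next at 12.8 FPKM (9.79 to 16.5) and was above Il1r1 in all 17 libraries. Il1r1, the signalling receptor for interleukin 1, had 8.92 FPKM, Il6st, which encodes the signal transducer gp130, 6.98 FPKM, Tlr2 6.54 FPKM and Ifngr2, the second chain of the interferon gamma receptor, 6.195 FPKM. The order of these 4 was not fixed: Il1r1 was above Il6st in 12 of 17 libraries, Il6st above Tlr2 in 9 and Tlr2 above Ifngr2 in 11. Cd14, the lipopolysaccharide co-receptor, had 3.56 FPKM and was above Tnfrsf1b in all 17 libraries.

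The lower tier held Tnfrsf1b, Il6ra and Tlr4. Tnfrsf1b, the second TNF receptor, which is known from haematopoietic and endothelial cells, had a median of 0.858 FPKM, Il6ra, the interleukin 6-binding chain, 0.824 FPKM, and Tlr4 0.626 FPKM, at the 26.1st percentile. Ranges overlapped, with Tnfrsf1b above Il6ra in 11 and Il6ra above Tlr4 in 12 of 17 libraries. Thus within the pairs that form or share a receptor system, Il6st exceeded Il6ra 5.53 to 13.9 times, Tnfrsf1a exceeded Tnfrsf1b 8.43 to 93.4 times and Ifngr1 exceeded Ifngr2 1.04 to 2.57 times in FPKM. Exon lengths were summed over all annotated isoforms, so a gene whose longest isoform is rarely used has an FPKM that is too low.

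**Figure D1:**
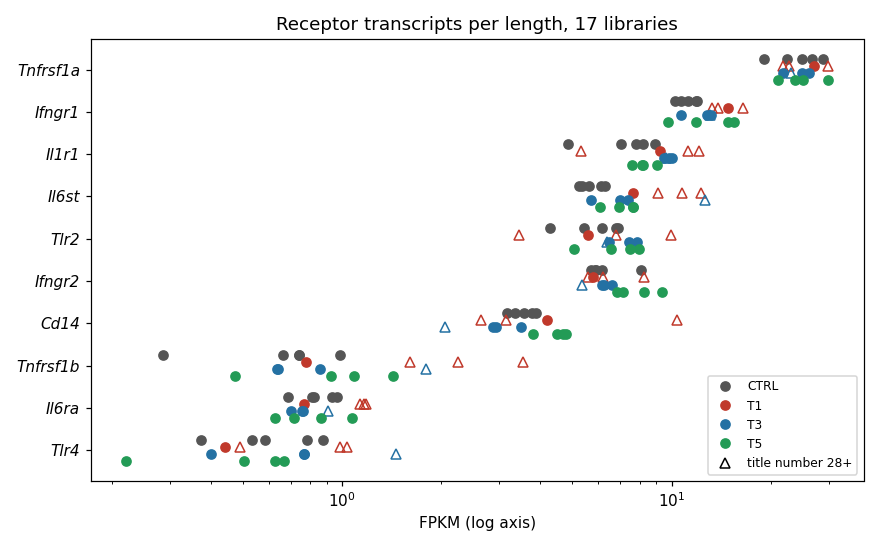
FPKM (log axis) of the 10 receptor genes in each of the 17 libraries, in order of their median; colours are groups and open triangles are the 4 libraries with title numbers of 28 or above. Tnfrsf1a stands alone at 19.1 to 29.9 FPKM, and Tnfrsf1b, Il6ra and Tlr4 form the lower tier.

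Genes also differed in how much they varied. Across the 17 libraries the highest CPM of Tnfrsf1a was 1.57 times the lowest, of Ifngr1 1.69 times and of Ifngr2 1.75 times. The highest CPM of Cd14 was 5.06 times the lowest, of Tlr4 6.62 times and of Tnfrsf1b 12.4 times. The most variable genes were thus among those with the lowest levels, and Tlr4 and Tnfrsf1b had as few as 23 and 26 counts in a library.

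No receptor passed the test in any of 5 comparisons (T1, T3 and T5 against CTRL, T3 against T1 and T5 against T3; edgeR quasi-likelihood test, adjusted over all genes at 0.05). In each of them edgeR called 0% of all tested genes. At an unadjusted p under 0.05, 3 of the 10 receptors were higher in T1 than in CTRL (Il6st, Tnfrsf1b and Ifngr1), where 21.1% of all genes passed that level in either direction and 9.43% in the higher direction. In T3 there were 2 (Il6st and Il1r1, both higher), where 4.97% of all genes passed and 3.2% were higher. In T5 there was 1 (Ifngr2, higher), where 7.83% of all genes passed and 3.89% were higher. DESeq2 called 2 receptors in T1 against CTRL, where it called 3.76% of its genes, and limma-voom with quality weights called 3, where it called 24.2%; neither called a receptor in T3 or T5 against CTRL. The median log2 fold change of the 10 receptors was 0.35 in T1 (all tested genes, 0.08), 0.20 in T3 (0.02) and 0.21 in T5 (0.02), with 10, 6 and 8 positive signs, where 57.7%, 52.7% and 54.5% of all tested genes were positive.

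**Figure D2:**
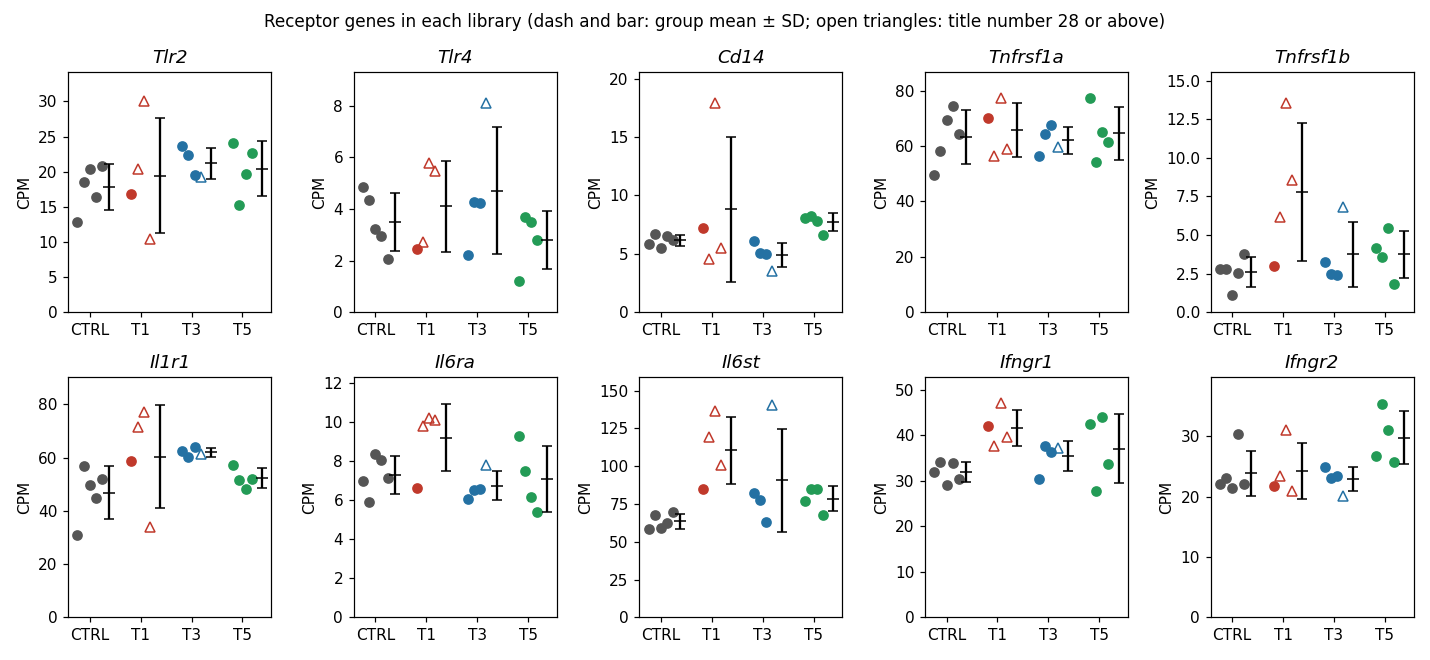
CPM of each receptor gene in each library, by group; dashes and bars are the group mean ± SD, and open triangles are libraries with title numbers of 28 or above. The 4 Il6st values of T1, 84.8 to 137 CPM, and the 4 Ifngr1 values of T1, 37.8 to 47.0 CPM, lie above all CTRL values. Of all tested genes, 2.9% had all T1 values above all CTRL values.

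T1 replicate 3 was the highest of the T1 libraries for all 10 receptors, whereas it was the highest T1 library for 20.5% of all tested genes. For 6 of the 10 it was the highest of all 17 libraries. Without it, 6 of the 10 receptors had a positive log2 fold change against CTRL and the median was 0.13 (all tested genes, 0.07). The summed level of 7 neutrophil markers was 50.9 CPM in this library, against 2.45 to 4.55 CPM in the other T1 libraries and 0.883 to 21.03 CPM in CTRL. Of these markers Ly6g was at 0 in 12 libraries and Cxcr2 in 9. The summed level of 6 monocyte markers was 15.8 CPM, against 3.67 to 6.56 CPM in the other T1 libraries and 2.19 to 9.03 CPM in CTRL. The part of these cells in the receptor values was not tested.

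Il6st had the smallest p of the 10 receptors in T1. It stood at 58.3, 67.7, 59.4, 62.5 and 69.5 CPM in CTRL, at 84.8, 119, 137 and 101 CPM in T1, at 82.1, 77.4, 63.2 and 140.2 CPM in T3, and at 76.9, 85.0, 84.8 and 67.4 CPM in T5. All T1 values lay above all CTRL values, which held in the higher direction for 2.9% of tested genes; 3 of 4 T3 and 3 of 4 T5 values lay above the CTRL range. T1 averaged 110.4 ± 22.4 CPM (SD, n = 4) against 63.5 ± 4.95 CPM for CTRL (n = 5), and the log2 fold change was 0.80 ± 0.19 (SE; edgeR adjusted p = 0.128, unadjusted p = 0.000468, rank 57 of all tested genes). In T3 the log2 fold change was 0.52 ± 0.19 (adjusted p = 0.911) and in T5 0.31 ± 0.19 (adjusted p = 0.726).

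The size of the T1 difference of Il6st rested in part on the libraries with high title numbers. T1 replicates 2 to 4 had such numbers and no CTRL library did. For this and the other T1 values, title number and 1 day of DSS thus cannot be told apart in those libraries. These 4 held 101 to 140.2 CPM, against 58.3 to 85.0 CPM in the other 13. The log2 fold change in T1 was 0.26 with a term for those libraries (adjusted p = 0.999) and 0.40 without them (adjusted p = 0.793). It was called with DESeq2 (0.80, adjusted p = 0.0113), with limma-voom (0.90, adjusted p = 0.00426), without T1 replicate 1 (0.90, edgeR adjusted p = 0.0209) and without T3 replicate 4 (0.80, edgeR adjusted p = 0.0248), out of 25 alternatives whose adjusted p ran from 0.00426 to 0.999. Without T1 replicate 1 edgeR called 12.7% of all genes, and without T3 replicate 4 it called 4.25%. In T3 the log2 fold change of Il6st was 0.22 without T3 replicate 4.

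Il6ra, whose product binds interleukin 6 before gp130 is recruited, varied over a 1.89-fold range across all libraries; an antisense gene, Gm42809, overlaps it. In T1 it stood at 6.63, 9.82, 10.2 and 10.1 CPM, against 7.002, 5.93, 8.37, 8.06 and 7.12 CPM in CTRL (log2 fold change 0.34 ± 0.19, edgeR adjusted p = 0.308). T1 replicates 2 to 4 were above the CTRL range and T1 replicate 1 was inside it. With a term for the high title numbers, or without those libraries, the sign turned, down to -0.16. In T3 and T5 the approximate 95% intervals of the log2 fold change were -0.51 to 0.29 and -0.44 to 0.36. The FPKM ratio of Il6st to Il6ra was 9.39 ± 1.15 in T1 (SD, n = 4) and 6.91 ± 1.34 in CTRL (n = 5), with overlapping ranges of 7.77 to 10.4 and 5.53 to 8.88.

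Tnfrsf1b had the largest fold change of the 10 in T1. It stood at 2.82, 2.82, 1.09, 2.52 and 3.76 CPM in CTRL, at 2.96, 6.15, 13.5 and 8.56 CPM in T1, at 3.28, 2.44, 2.42 and 6.84 CPM in T3, and at 4.16, 3.54, 5.46 and 1.80 CPM in T5. T1 replicate 1 lay inside the CTRL range, and T1 replicates 2 to 4 with T3 replicate 4 were the 4 highest of the 17 libraries. T1 averaged 7.80 ± 4.46 CPM (SD, n = 4) against 2.603 ± 0.964 CPM for CTRL (n = 5), and the log2 fold change was 1.59 ± 0.45 (edgeR adjusted p = 0.138, unadjusted p = 0.00261). A term for high title numbers gave 0.32 (adjusted p = 0.999) and leaving those libraries out gave 0.17 (adjusted p = 0.983). DESeq2 (adjusted p = 0.0246), limma-voom (adjusted p = 0.00494), and edgeR without T1 replicate 1 (adjusted p = 0.0215) or without T3 replicate 4 (adjusted p = 0.0432) called it, among 25 alternatives that ran from 0.00494 to 0.999. In T3 its log2 fold change was 0.53 ± 0.45, and 0.04 without T3 replicate 4; in T5 it was 0.52 ± 0.45.

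The higher Tnfrsf1b and Il6st values stood in libraries with more endothelial transcripts and, in most, a lower epithelial marker sum. The 8 epithelial markers summed to 60801 to 101600 CPM in the 4 libraries of high title number and to 96294 to 158310 CPM in the other 13. Ttr made up most of that sum, with a median of 108750 CPM against 2791 CPM for Kl. In T1, 4 of the 8 epithelial markers had a positive log2 fold change (median -0.12). Monocyte markers summed to 5.17 to 15.8 CPM in those 4 and 2.19 to 9.03 CPM in the other 13, and neutrophil markers to 4.15 to 50.9 CPM and 0.883 to 21.03 CPM. The summed level of 10 endothelial markers (Pecam1, Cdh5, Kdr and others) was 215 to 499 CPM in T1 and 110 to 249 CPM in CTRL, and 281 CPM in T3 replicate 4 against 140.0 to 149 CPM in the other T3 libraries. All 10 markers had a positive log2 fold change in T1, with a median of 1.11 and 0 called by edgeR, and no marker was at 0 in a library. The 8 mural cell markers were positive in T1 as well (median 1.26), and reached 554 CPM in T3 replicate 4. The 11 border macrophage markers were all positive in T1 (median 0.59), at 158 to 224 CPM against 109 to 180 CPM in CTRL; Cd163 was at 0 in 1 library. The summed level of 8 neuronal markers was 98.3 to 345 CPM in T1 and 16.9 to 109 CPM in CTRL, and with a brain marker covariate the T1 log2 fold changes were 0.65 for Il6st, 1.09 for Tnfrsf1b and 0.37 for Ifngr1. Beyond this covariate, the part of these cell types in the receptor values was not tested.

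**Figure D3:**
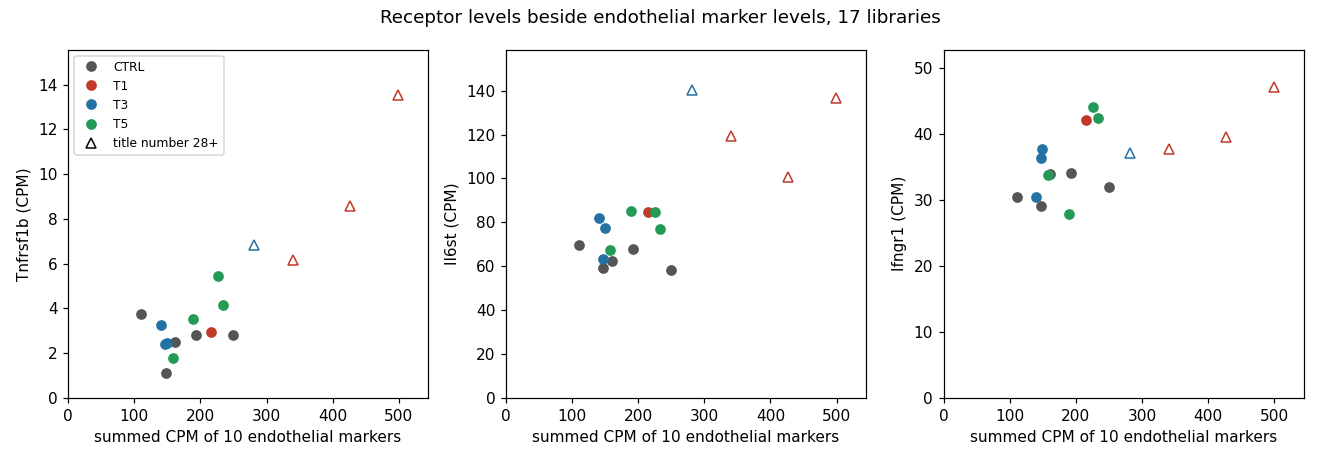
CPM of Tnfrsf1b, Il6st and Ifngr1 (vertical axes) against the summed CPM of 10 endothelial markers (horizontal axes), 1 point per library; colours are groups and open triangles are libraries with title numbers of 28 or above. The triangles hold the highest Tnfrsf1b (6.15 to 13.5 CPM) and Il6st (101 to 140.2 CPM) values. The highest Ifngr1 value, 47.0 CPM, is in the library with the most endothelial transcripts, 499 CPM, and T1 replicate 1, the filled red point, has 42.1 CPM at 215 CPM.

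Tnfrsf1a had log2 fold changes near 0 in all 3 DSS groups. It stood at 70.0, 56.5, 77.5 and 58.9 CPM in T1, against 49.5, 58.3, 69.3, 74.6 and 64.5 CPM in CTRL, and each group overlapped CTRL. The log2 fold changes were 0.06, -0.03 and 0.03 in T1, T3 and T5, with approximate 95% intervals of -0.22 to 0.34, -0.30 to 0.25 and -0.25 to 0.31. The FPKM ratio of Tnfrsf1a to Tnfrsf1b was 8.43 to 34.9 in T1 and 25.3 to 93.4 in CTRL, so that the groups overlapped. T1 replicate 1 had a ratio of 34.9, and T1 replicates 2 to 4 had 8.43 to 13.5.

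Of the interferon gamma receptor chains, Ifngr1 was higher in every T1 library than in any CTRL library, as were 2.9% of tested genes. It stood at 31.9, 34.0, 29.1, 33.9 and 30.5 CPM in CTRL, at 42.1, 37.8, 47.0 and 39.5 CPM in T1, at 30.4, 37.6, 36.4 and 37.1 CPM in T3, and at 42.4, 27.9, 44.1 and 33.7 CPM in T5. T1 averaged 41.6 ± 4.03 CPM (SD, n = 4) against 31.9 ± 2.14 CPM for CTRL (n = 5), and the log2 fold change was 0.38 ± 0.12 (edgeR adjusted p = 0.14, unadjusted p = 0.00678). T1 replicate 1, whose title number is below 28, had 42.1 CPM. The log2 fold change was 0.36 with a term for the high title numbers (adjusted p = 0.999) and 0.38 without those libraries (adjusted p = 0.838), and over all 25 alternatives it ran from 0.33 to 0.43. Of these, limma-voom called it (adjusted p = 0.0248). In T3 and T5 the log2 fold changes were 0.15 ± 0.12 and 0.22 ± 0.12.

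Ifngr2 overlapped CTRL in T1. It stood at 21.7, 23.3, 31.0 and 20.9 CPM in T1, against 22.1, 23.1, 21.4, 30.4 and 22.2 CPM in CTRL; the log2 fold change was 0.03 ± 0.14, with an approximate 95% interval of -0.27 to 0.33. The FPKM ratio of Ifngr1 to Ifngr2 was 2.57, 2.14, 2.01 and 2.50 in T1 and 1.91, 1.95, 1.80, 1.47 and 1.82 in CTRL, and these ranges did not overlap; the ratio was not tested. In T5 Ifngr2 stood at 26.8, 35.4, 31.1 and 25.8 CPM, with a log2 fold change against CTRL of 0.32 ± 0.14 (edgeR adjusted p = 0.62, unadjusted p = 0.0387). All T5 values of Ifngr2 lay above all T3 values of 24.9, 23.1, 23.5 and 20.2 CPM, which held in the higher direction for 3.04% of tested genes (log2 fold change 0.38 ± 0.15, adjusted p = 0.414). The T5 and CTRL values overlapped through CTRL replicate 4.

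Il1r1 was higher in T3 than in CTRL with little spread between the T3 libraries; the annotated gene Gm38070 overlaps it on the same strand. It stood at 62.3, 60.4, 64.1 and 61.2 CPM in T3, against 30.8, 56.8, 49.7, 44.8 and 52.1 CPM in CTRL, and the values did not overlap; this held in the higher direction for 0.783% of tested genes. T3 averaged 62.0 ± 1.59 CPM (SD, n = 4) against 46.8 ± 9.95 CPM for CTRL (n = 5), and the log2 fold change was 0.40 ± 0.19 (edgeR adjusted p = 0.911, unadjusted p = 0.049). T3 replicate 4 lay with the others here. Without it the log2 fold change was 0.41 and the unadjusted p 0.065 (edgeR). Without all libraries of high title number the log2 fold change was also 0.41. Leaving out 1 library at a time gave 0.28 to 0.48. CTRL replicate 1 held the lowest Il1r1 value of the 17 libraries, 30.8 CPM, against 44.8 to 56.8 CPM in the other CTRL libraries. In T1 Il1r1 spread widely, at 58.6, 71.6, 77.3 and 33.9 CPM (0.37 ± 0.19, adjusted p = 0.275), and in T5 it stood at 57.4, 51.7, 48.2 and 52.1 CPM (0.16 ± 0.19). Il1rap, the accessory chain that Il1r1 needs for signalling, had a median of 36.5 CPM over all libraries, and the decoy receptor Il1r2 had 0.0565 CPM and was at 0 in 7 libraries.

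Of the receptors for bacterial products, Tlr2 stood at 12.9, 18.6, 20.4, 16.4 and 20.8 CPM in CTRL, 16.8, 20.4, 30.1 and 10.4 CPM in T1, 23.7, 22.4, 19.5 and 19.2 CPM in T3, and 24.1, 15.3, 19.7 and 22.6 CPM in T5. T1 held both the highest and the lowest Tlr2 value of the 17 libraries, and all 3 DSS groups overlapped CTRL. The log2 fold changes of Tlr2 were 0.13 ± 0.23, 0.25 ± 0.23 and 0.20 ± 0.23 in T1, T3 and T5. Those of Tlr4 were 0.23 ± 0.40, 0.44 ± 0.40 and -0.33 ± 0.41, with approximate 95% intervals of -0.62 to 1.08, -0.41 to 1.28 and -1.19 to 0.53, the widest of the 3 bacterial receptors. Tlr4 reached 8.12 CPM in T3 replicate 4 and was at 1.23 to 5.76 CPM in the other 16 libraries; its T3 log2 fold change was 0.03 without that library.

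Cd14 spread little in CTRL, and its T1 mean rested on 1 library. It stood at 5.82, 6.70, 5.47, 6.55 and 6.17 CPM in CTRL, 7.25, 4.56, 17.9 and 5.46 CPM in T1, 6.07, 5.08, 4.98 and 3.54 CPM in T3, and 8.10, 8.27, 7.80 and 6.57 CPM in T5. The T1 log2 fold change was 0.52 ± 0.31 (edgeR adjusted p = 0.331), and -0.09 without T1 replicate 3. In T3, 3 of 4 values lay below the CTRL range (-0.32 ± 0.31, adjusted p = 0.916), and in T5, 3 of 4 lay above it (0.32 ± 0.31, adjusted p = 0.858). T5 values were all above T3 values, as for 3.04% of all tested genes, with a log2 fold change of 0.65 ± 0.33 (adjusted p = 0.491). The summed border macrophage markers, which include no receptor of the 10, were 178 to 321 CPM in T5 and 141 to 236 CPM in T3 (median log2 fold change 0.38, 8 of 11 positive). The 7 microglia markers summed to 110.5 to 208 CPM in T5 and 96.9 to 111 CPM in T3 (median 0.74, 6 of 7 positive). The part of these cells in the Cd14 values was not tested.

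**Figure D4:**
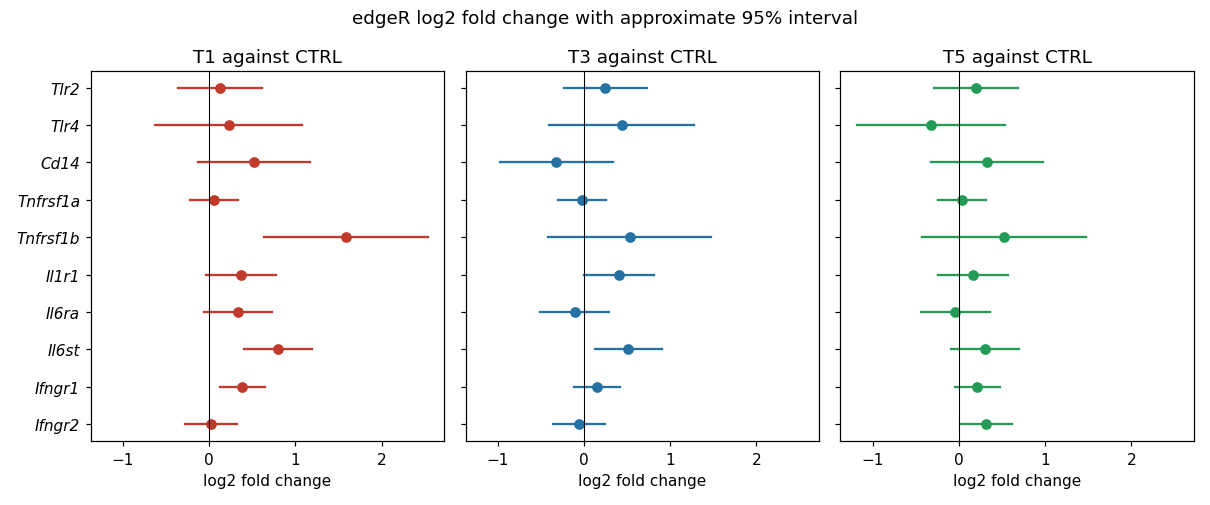
Log2 fold change (horizontal axis) of each receptor gene in T1, T3 and T5 against CTRL; points are edgeR estimates and lines approximate 95% intervals. In T1 the intervals of Tnfrsf1b, Il6st and Ifngr1 lie above 0, and none of the 30 values passed the test over all genes.

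The genes that carry lipopolysaccharide to these receptors had very different levels. Lbp, the lipopolysaccharide binding protein gene, had a median of 809.9 CPM and 168 FPKM, above every receptor of the 10. It averaged 694 ± 122 CPM over T1 (SD, n = 4) against 754 ± 197 CPM over CTRL (n = 5), with log2 fold changes of -0.12 ± 0.21, 0.00 ± 0.21 and -0.02 ± 0.21 in T1, T3 and T5. Ly96, the gene of MD-2, had a median of 4.10 FPKM and was thus above Tlr4 at 0.626 FPKM. Cytokine ligands were at the limit of detection: over all 17 libraries Ifng had 1 count, Il6 had 11 and Tnf had 18, and a count of 0 allows up to 3 counts, or 0.116 to 0.306 CPM by library (counting error only). Il1b was between 0.0561 and 2.40 CPM, with no called difference.

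Of 11 co-receptors and partner chains, all had a positive log2 fold change in T1 (median 0.76), 4 were higher at an unadjusted p under 0.05, and none was called in any comparison; of all tested genes 57.7% were positive and 9.43% were higher at that level. Osmr, the oncostatin M receptor chain that pairs with gp130, averaged 13.9 ± 8.29 CPM over T1 (SD, n = 4) against 4.98 ± 1.85 CPM over CTRL (n = 5), with 1.48 ± 0.36 as log2 fold change (edgeR adjusted p = 0.128). Cntfr, the ciliary neurotrophic factor receptor chain that also works with gp130, stood at 5.71, 10.4, 16.97 and 7.74 CPM in T1, against 3.73, 4.32, 3.87, 4.66 and 2.47 CPM in CTRL (1.42 ± 0.34, adjusted p = 0.128). Cd180, a TLR-like gene of B cells and macrophages, reached at most 1.46 CPM in a library (2.26 ± 0.70, adjusted p = 0.138). All T1 values of these 3 genes lay above all CTRL values, as they did for 2.9% of all tested genes.

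Signalling genes had signs in both directions. Of 22 adaptors and kinases, 13 had a positive sign in T1 (median 0.06), where 57.7% of all tested genes did, and none was called. Tradd, the adaptor of the TNF receptor 1 complex, stood at 10.7, 10.9, 12.2 and 12.8 CPM in T1, against 20.8, 18.8, 18.5, 22.1 and 13.8 CPM in CTRL (log2 fold change -0.69 ± 0.14, edgeR adjusted p = 0.128, rank 16 of all tested genes). Its log2 fold change was -0.37 ± 0.14 in T3 and -0.12 ± 0.14 in T5. Jak1, a kinase of both the gp130 and the interferon gamma receptor, averaged 101 ± 11.01 CPM over T1 (SD, n = 4) against 77.1 ± 4.37 CPM over CTRL (n = 5; 0.39 ± 0.11, adjusted p = 0.135). Ikbkb, a kinase that releases NF-kB, had 32.3 CPM in T1 replicate 1, with 52.0 to 55.6 CPM in T1 replicates 2 to 4, against 31.2 to 35.7 CPM in CTRL, and its T3 values of 36.6 to 52.1 CPM lay above all CTRL values, as for 0.783% of all tested genes.

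All 8 transcription factors were positive in T1, with a median of 0.39 and none called; Stat3 had 0.44 ± 0.18, Nfkb1 0.41 ± 0.17 and Nfkb2 1.04 ± 0.47. Of 14 tested decoys and inhibitors, 9 were positive in T1 (median 0.18). Adam17, the sheddase that releases TNF and both TNF receptors from the cell surface, had 0.39 ± 0.16 in T1 and 0.38 ± 0.16 in T3. Its level was 31.1 CPM in CTRL replicate 1, against 43.4 to 65.6 CPM in the other CTRL libraries. Cyld, a deubiquitinase that restrains NF-kB, had 0.31 ± 0.15 in T3. Ptpn2, a phosphatase that acts on JAK and STAT proteins, had 0.29 ± 0.11 in T5. Of 16 tested target genes, 15 were positive in each of T1, T3 and T5, with medians of 0.61, 0.34 and 0.97 and none called. Of all tested genes 57.7%, 52.7% and 54.5% were positive in these groups. At an unadjusted p under 0.05 (edgeR), 6, 1 and 8 target genes were higher, where 9.43%, 3.2% and 3.89% of all genes were. T1 replicate 3 held Ccl2 at 8.29 CPM and Lcn2 at 49.2 CPM. The other T1 libraries had 0.510 to 0.774 CPM of Ccl2 and 0.182 to 0.918 CPM of Lcn2. Icam1, Bcl3 and Cebpd were also highest in that T1 library, whereas Ptgs2, Ciita and Cd274 were highest in other T1 libraries. The counts of target genes were not repeated without T1 replicate 3. The target genes were listed with earlier results of these data known. Ptgs2, the inducible cyclooxygenase gene, had 1.73 ± 0.46 in T1, Iigp1, an interferon-induced GTPase gene, 1.55 ± 0.37 in T5, and Cxcl10, a chemokine gene induced by interferon gamma, 2.58 ± 0.64 in T5.

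Cxcl10 stood at 6.98, 2.36, 6.10 and 0.930 CPM in T5, against 1.02, 0.282, 0.883, 0.378 and 0.841 CPM in CTRL (edgeR adjusted p = 0.521), so the groups overlapped through T5 replicate 4. Of 17 tested genes among 22 other innate and cytokine receptors, 13, 15 and 14 were positive in T1, T3 and T5 (medians 0.33, 0.15 and 0.13). Of all tested genes 57.7%, 52.7% and 54.5% were positive, and none of these receptors was called. Among these receptors Ifnar1, a chain of the type I interferon receptor, averaged 42.7 ± 3.79 CPM over T1 (SD, n = 4) against 34.1 ± 4.78 CPM over CTRL (n = 5, log2 fold change 0.33 ± 0.13). Csf1r, the receptor gene of macrophages, had 0.77 ± 0.34, and Il17rc, a chain of the interleukin 17 receptor, had -0.40 ± 0.16 in T1.

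Many of these T1 values moved with the 4 libraries of high title number. With a term for them the log2 fold change in T1 was 0.78 for Osmr, 0.62 for Cntfr, 0.11 for Ikbkb, 0.23 for Jak1, 0.27 for Ptgs2, 0.30 for Nfkb2, 0.28 for Nfkb1, 0.07 for Stat3, 0.29 for Adam17, 0.14 for Ifnar1, -0.20 for Csf1r and -0.10 for Il17rc. Without those libraries it was 0.97 for Osmr, 0.57 for Cntfr, -0.04 for Ikbkb, 0.14 for Jak1, 0.01 for Ptgs2, -0.30 for Nfkb2, 0.18 for Nfkb1, -0.13 for Stat3, 0.23 for Adam17, 0.28 for Ifnar1, -0.16 for Csf1r and -0.09 for Il17rc. Tradd kept a log2 fold change of -0.60 with the term and -0.83 without the libraries. Cd180 had 2.05 and 1.58, but these values lie near the limit of detection. It had 110 counts over all 17 libraries. In T1 replicate 1 it stood at 0.510 CPM, where a count of 0 allows up to 0.306 CPM. Leaving out T1 replicate 3 gave 0.31 for Nfkb2, 0.19 for Stat3 and 0.98 for Osmr. Without T1 replicate 1 edgeR called Tradd, Osmr, Cntfr, Cd180, Ikbkb, Jak1, Ptgs2, Stat3 and Il17rc (adjusted p from 0.0179 to 0.0458), where it called 12.7% of all genes. Without T3 replicate 4 edgeR called Tradd, Osmr, Cntfr, Ikbkb and Ptgs2 (adjusted p from 0.0255 to 0.037), where it called 4.25% of all genes. These genes were named for their small p in the same data, so their calls are not independent support.

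**Figure D5:**
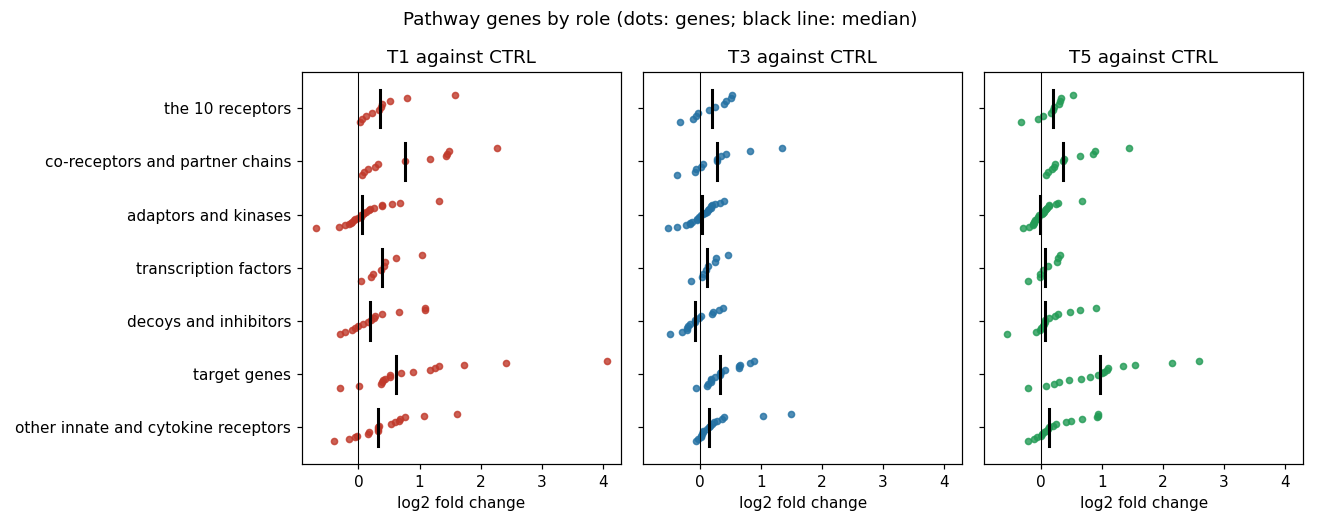
Log2 fold change (horizontal axis) of the tested genes of each role in T1, T3 and T5 against CTRL; dots are genes and black lines medians. The co-receptors and partner chains have a median of 0.76 in T1 and the target genes 0.97 in T5, and no gene shown passed the test over all genes.

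Between DSS groups no receptor was called either. In T3 against T1, Cd14 (-0.84 ± 0.33), Il6ra (-0.44 ± 0.20) and Tnfrsf1b (-1.06 ± 0.48) were lower in T3 at an unadjusted p under 0.05, where 8.2% of all genes passed and 4.63% were lower. Their edgeR adjusted p was 0.577 each. Without T1 replicate 3 the log2 fold change of Cd14 was -0.24 and that of Tnfrsf1b -0.68, and no receptor had an unadjusted p under 0.05, where 3.88% of all genes did. With a term for high title numbers Tnfrsf1b had -0.31, Il6ra -0.21 and Cd14 -0.92, and without the libraries of high title number they had -0.11, -0.03 and -0.41. Limma-voom called 3 receptors lower in T3 than in T1 (Il6ra, Il6st and Tnfrsf1b), where it called 24.1% of all genes. In T5 against T3, Ifngr2 had an unadjusted p of 0.0226, where 10.5% of all genes passed that level and 4.31% were higher. Ifngr1 stood lower in all T3 libraries than in any T1 library (-0.23 ± 0.13, edgeR adjusted p = 0.58), which held for 1.73% of tested genes. Il1r1 stood lower in all T5 libraries than in any T3 library (-0.24 ± 0.20, adjusted p = 0.652), which held for 4.31% of tested genes.

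The 3 receptors with the lowest p in T1 are shown with the 250 bases before their annotated start, to let their promoters be compared (RefSeq, GRCm38.p6, gene strand, 5′ to 3′). The stretches lie at chr4:145246871-145247120 (minus strand, Tnfrsf1b), chr13:112463820-112464069 (plus strand, Il6st) and chr10:19591699-19591948 (plus strand, Ifngr1). Capitals mark matches on either strand to a gamma-activated site, the letters that STAT proteins bind (TTCNNNGAA), or to a GC box (GGGCGG).
Tnfrsf1b: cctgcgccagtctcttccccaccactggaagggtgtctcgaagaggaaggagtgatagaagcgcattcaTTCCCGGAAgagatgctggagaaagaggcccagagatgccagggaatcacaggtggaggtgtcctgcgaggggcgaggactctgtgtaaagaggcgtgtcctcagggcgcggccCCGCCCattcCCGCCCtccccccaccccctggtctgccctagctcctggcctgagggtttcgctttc
Il6st: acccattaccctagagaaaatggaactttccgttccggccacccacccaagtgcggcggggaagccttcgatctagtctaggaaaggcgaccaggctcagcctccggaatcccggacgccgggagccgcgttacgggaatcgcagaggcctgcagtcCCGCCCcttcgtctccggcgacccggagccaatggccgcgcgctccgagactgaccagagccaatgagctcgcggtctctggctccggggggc
Ifngr1: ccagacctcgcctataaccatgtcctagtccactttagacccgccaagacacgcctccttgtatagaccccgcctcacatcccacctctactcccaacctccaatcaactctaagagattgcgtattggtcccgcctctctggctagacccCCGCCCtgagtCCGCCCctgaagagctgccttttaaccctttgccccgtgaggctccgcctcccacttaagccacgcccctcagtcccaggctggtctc
Tnfrsf1b has 1 gamma-activated match (TTCCCGGAA), 181 bases before the start, and 2 GC boxes. Il6st has 1 GC box and Ifngr1 has 2, and neither has a gamma-activated match in this window. Tnfrsf1a, whose stretch is not shown, also has 1 gamma-activated match (TTCCGTGAA), 244 bases before its RefSeq start. Of 32851 promoters of the same length, 7.02% held a gamma-activated match and 32.7% a GC box; no matches overlapped in these 3 stretches. RefSeq promoters were matched for 8 of the 10 receptors, and a match is a run of letters and not a shown site.

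Each receptor's level over the 17 libraries was also set beside all other tested genes, by Pearson r of log2 CPM, as a description in which all points share library and depth. Il6st was most like Lamc1, a laminin gene of basement membranes (r = 0.922), and Nrp1, a co-receptor for vascular endothelial growth factor (0.891). Over the 13 libraries of lower title number r was 0.831 for Lamc1 and 0.424 for Nrp1. Tnfrsf1b was most like Fermt3, an integrin activator of blood cells (0.920, and 0.885 over the 13), and Pros1, the protein S gene (0.911 and 0.938). Tnfrsf1a was most like Tex261 (0.898 and 0.964) and Man2b2, a lysosomal mannosidase gene (0.884 and 0.963). Il1r1 was most like Man1a, a Golgi mannosidase gene (0.908 and 0.846), and Il6ra like Mrtfa (0.877 and 0.750).

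For the other receptors the nearest genes were Ap3b1 (0.859) for Tlr2, Map3k1 (0.819) for Tlr4, Chst14 (0.834) and Bcl3 (0.832) for Ifngr1, and Tcf20 (0.811) for Ifngr2. Without the 2 libraries farthest from the median of each receptor, these values were 0.607, 0.601, 0.777, 0.749 and 0.704, in that order. Cd14 was most like Pomc (0.795) and Prl (0.776), which encode pituitary hormones, but without the 2 libraries farthest from the median of Cd14 these values were 0.315 and 0.194. Over the 13 libraries of lower title number they were 0.160 and 0.0915. Among the receptors themselves the highest values over all 17 libraries were 0.851 between Tnfrsf1b and Il6st and 0.811 between Tlr2 and Il1r1. The 4 libraries of high title number lay apart from the other 13 for both Tnfrsf1b and Il6st. Tnfrsf1b had 6.15 to 13.5 CPM against 1.09 to 5.46 CPM, and Il6st 101 to 140.2 CPM against 58.3 to 85.0 CPM. The 0.851 thus spans separate sets of libraries, and neither pair was set beside each other over the 13 alone.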

How the data were processed

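RNA sequencing libraries were made with the SMART-Seq v4 kit, per the labels' protocols, which amplifies cDNA by PCR, so counts are not independent molecules. The authors deposited raw read counts per Ensembl gene in 1 table. Per the submitters' processing notes, the tools included featureCounts 1.6.4, STAR 2.6.1b and Trimmomatic 0.39, with the GRCm38 build; which annotation release, strand setting and multi-mapping rule were used is not stated in the labels. Symbols and exon lengths came from GENCODE M21 (55394 of 55487 identifiers matched). Il1r1 and Il6ra overlap other annotated genes (Gm38070, and Gm42809 on the opposite strand), whose reads cannot be told apart from theirs with certainty.

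Groups followed the time point label of each sample. The test was edgeR 4.0.16 under R 4.3.3 (TMM, filterByExpr, 1 mean per group over 17 libraries, robust quasi-likelihood F test, Benjamini-Hochberg over 16851 genes, threshold 0.05). SE was derived from the size of the log2 fold change and its F value (size over root F), and 95% intervals from it are approximate. DESeq2 1.42.0 and limma 3.58.1 (voom with quality weights), RLE scaling, no filter, 2-group fits, a title number term, a brain marker covariate and leaving out libraries were the alternatives. On simulated counts for T1 against CTRL (16851 genes), 49% of 100 genes with a log2 change of 1 and 79% of 100 with 2 were called. In that simulation 7 unchanged genes were called. The simulated counts held no shift shared by the 4 libraries of high title number, so these rates need not hold for the real data. The receptors and gene lists were chosen with earlier results of these data known. From each other list the 3 genes with the smallest p against CTRL were named (2 of the ligands were tested), and for each receptor up to 3 nearest genes. Ifng, Il6, Tnf, Ly96, Il1rap, Il1r2 and the markers were named for their role.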

Additional observations from a re-analysis of the deposited data

Results flagged for a closer look

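Gaps between the extreme library and the rest were examined for 40 groups of values (10 receptors in 4 groups), and chance flags about 1 in 20. Il6ra in T1 replicate 1 was flagged as far below the rest of its group, at 6.63 CPM against 9.82 to 10.2 CPM in the other T1 libraries. Ifngr2 in CTRL replicate 4 was flagged as far above the rest of its group, at 30.4 CPM against 21.4 to 23.1 CPM in the other CTRL libraries. Without CTRL replicate 4 the log2 fold change of Ifngr2 in T5 against CTRL was 0.42 (edgeR adjusted p = 0.617), against 0.32 with it.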

How the results depend on the processing

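With edgeR no gene was called in any of the 5 comparisons, and the count of called genes depended on the tool and on single libraries. In T1 against CTRL, DESeq2 called 496 genes and limma-voom 4084, and leaving out 1 library at a time gave 0 to 2203 (2203 without T1 replicate 1, 717 without T3 replicate 4). DESeq2 called 1 gene in T3 and 17 in T5 against CTRL, 26 in T3 against T1 and 47 in T5 against T3. Limma-voom called 4065 genes in T3 against T1, and leaving out 1 library gave 0 to 3 there and 0 to 1 in T5 against T3. Of the receptors, DESeq2 called 2 and limma-voom 3 in T1 against CTRL, and leaving out 1 library gave 0 to 2; limma-voom called 3 in T3 against T1. The cause was not tested. Of 1250 receptor values under alternatives, 61 changed sign, with no call in either fit. At an unadjusted p under 0.05, 1 receptor was left in T1 with the title number term (3.84% of all genes) and 0 in T3 without T3 replicate 4 (3.4% of all genes). No paired analysis was possible because the titles give no replicate numbers shared between groups. Tlr4, Cd14, Tnfrsf1b and Il6ra rest on the fewest counts, which limits their precision.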
